A study of Mus musculus with 35 samples.

Results

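The genes of polyamine metabolism were followed in quadriceps muscle of mice in which myostatin signalling had been lowered in 2 ways. Of 9 symbols looked for (Odc1, Srm, Sms, Amd1, Amd2, Azin1, Oaz1, Sat1 and Smox), a gene was kept where a row of the expression table was annotated with exactly that symbol. This gave 5 genes, Odc1, Srm, Azin1, Sat1 and Smox, among the 19938 genes measured. Sms and Oaz1 stood only on rows annotated with several symbols, and they and Amd1 and Amd2 are not analysed here. Odc1 had 2 rows, and the row with the higher mean over all arrays was used.

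RNA of 35 female mice aged 2 months was measured on 35 arrays. The 4 classes were control mice, Mstn-null mice, which lack myostatin, and mice given ActRIIB-Fc in 1 dose or in 4 doses. ActRIIB-Fc is a soluble activin type IIB receptor that captures myostatin and related ligands. Experiment 1 had 3 arrays in each class. Experiment 2, an independent follow-up, had 8 arrays of Mstn-null mice and 5 in each other class. The null allele, the strain, the amount of a dose, the interval between doses and what the control mice received are not given in the sources used here. ActRIIB-Fc also binds ligands other than myostatin, so the treated and the Mstn-null mice are not the same model.

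Polyamines (putrescine, spermidine and spermine) are small positively charged molecules that bind nucleic acids and are needed for growth and translation. Odc1, ornithine decarboxylase, makes putrescine in the rate-limiting step, and Srm, spermidine synthase, adds an aminopropyl group to form spermidine. Azin1, antizyme inhibitor 1, is an enzymatically inactive relative of Odc1 that binds antizyme and so protects Odc1 from degradation. Sat1, spermidine/spermine acetyltransferase, is the inducible enzyme that marks polyamines for export or breakdown, and Smox, spermine oxidase, converts spermine back to spermidine. In mouse muscle, Smox is known to fall in several forms of atrophy, and androgens raise Odc1.

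The promoters of the acetyltransferase, of the rate-limiting enzyme and of the oxidase are shown to let a reader see the sequence before genes whose values moved differently. RefSeq sequences of the assembly GRCm38.p6, from 250 bases before to 50 after the start, were matched for 3 of the 5 genes. Capitals mark the GC box GGGCGG and the Smad motif CAGAC on either strand, so that CCGCCC and GTCTG are the same motifs read on the opposite strand. The Sat1 promoter lies at chrX:155216400-155216699 on the minus strand, that of Odc1 at chr12:17544623-17544922 on the plus strand, and that of Smox at chr2:131491612-131491911 on the plus strand.
Sat1: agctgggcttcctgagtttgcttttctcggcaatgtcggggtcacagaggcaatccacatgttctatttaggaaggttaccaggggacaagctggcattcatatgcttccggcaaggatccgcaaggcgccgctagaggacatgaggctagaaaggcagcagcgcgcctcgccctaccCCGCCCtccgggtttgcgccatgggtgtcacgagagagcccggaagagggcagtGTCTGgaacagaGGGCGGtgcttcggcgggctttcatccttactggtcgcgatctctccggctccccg
Odc1: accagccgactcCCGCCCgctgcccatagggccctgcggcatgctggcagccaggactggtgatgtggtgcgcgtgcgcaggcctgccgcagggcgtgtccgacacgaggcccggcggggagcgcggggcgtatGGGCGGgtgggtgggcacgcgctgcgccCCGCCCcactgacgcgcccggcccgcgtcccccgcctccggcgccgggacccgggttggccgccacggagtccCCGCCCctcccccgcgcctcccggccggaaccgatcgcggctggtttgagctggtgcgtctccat
Smox: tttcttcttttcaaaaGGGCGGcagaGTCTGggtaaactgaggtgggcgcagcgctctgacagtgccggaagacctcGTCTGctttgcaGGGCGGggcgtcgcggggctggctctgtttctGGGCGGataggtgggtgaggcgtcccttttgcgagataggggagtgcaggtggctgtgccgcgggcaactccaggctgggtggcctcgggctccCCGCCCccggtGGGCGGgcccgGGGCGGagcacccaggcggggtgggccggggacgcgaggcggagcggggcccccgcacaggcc
The Sat1 window held 2 GC boxes and 1 Smad motif, the Odc1 window 4 GC boxes and 0 Smad motifs, and the Smox window 6 GC boxes and 2 Smad motifs. GC boxes were present in 35.7% and the Smad motif in 49.6% of 32851 RefSeq promoters of this length, so both are common. The E-box CACGTG (7.15% of promoters), the TATA box TATAAA (13.6%) and the forkhead motif GTAAACA (3.65%) had 0 matches in the 3 windows. A match of letters shows no binding, and a missing match says only that these letters are not in the window. In the same assembly Odc1 spans chr12:17544808-17551502, Srm chr4:148591513-148594619, Azin1 chr15:38487430-38519294, Sat1 chrX:155213126-155216449 and Smox chr2:131491858-131525183.

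All values are log2 expression values, in which a difference of 1 is a doubling. The median of an array was 4.39 to 4.52 in experiment 1 but 6.06 to 6.27 in experiment 2, and levels are therefore compared within an experiment. A gene was called when its Benjamini-Hochberg adjusted p over all 19938 genes was under 0.05 in limma, in a fit of all arrays with the experiment as a term. Changes are given with their standard error (SE). The 3 comparisons against control share the control arrays, so their results are not independent of each other. The muscle label was borne out by 10 muscle fibre markers, whose mean per array was 11.2 to 11.5 in experiment 1 and 12.9 to 13.5 in experiment 2. Mstn fell by 2.30 ± 0.23 (SE) log2 units in Mstn-null against control muscle (4.93-fold, limma adjusted p = 3.54e-08). The spread of values within an array differed between classes: the interquartile range in experiment 2 was 2.80 to 2.87 in controls, 2.52 to 2.76 in Mstn-null, 2.76 to 2.92 after 1 dose and 2.71 to 2.90 after 4 doses. In RNA from whole muscle, fewer cells of a type and less RNA per cell cannot be told apart.

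Sat1, the catabolic acetyltransferase, was the member with the largest change. It fell by 1.02 log2 units in Mstn-null against control muscle (2.03-fold, SE 0.19, limma adjusted p = 0.000141) over both experiments, and it was the 1 called gene of the 5. In this comparison 41.8% of all genes were called, 16.4% as lower, so the share of members called was below that of all genes. The other 4 members differed by at most 0.13 log2 units. The split of calls over all genes was 5062 higher and 3275 lower, and with arrays centred on their medians it was 1476 higher and 4402 lower, while Sat1 stayed lower in both.

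**Figure D1:**
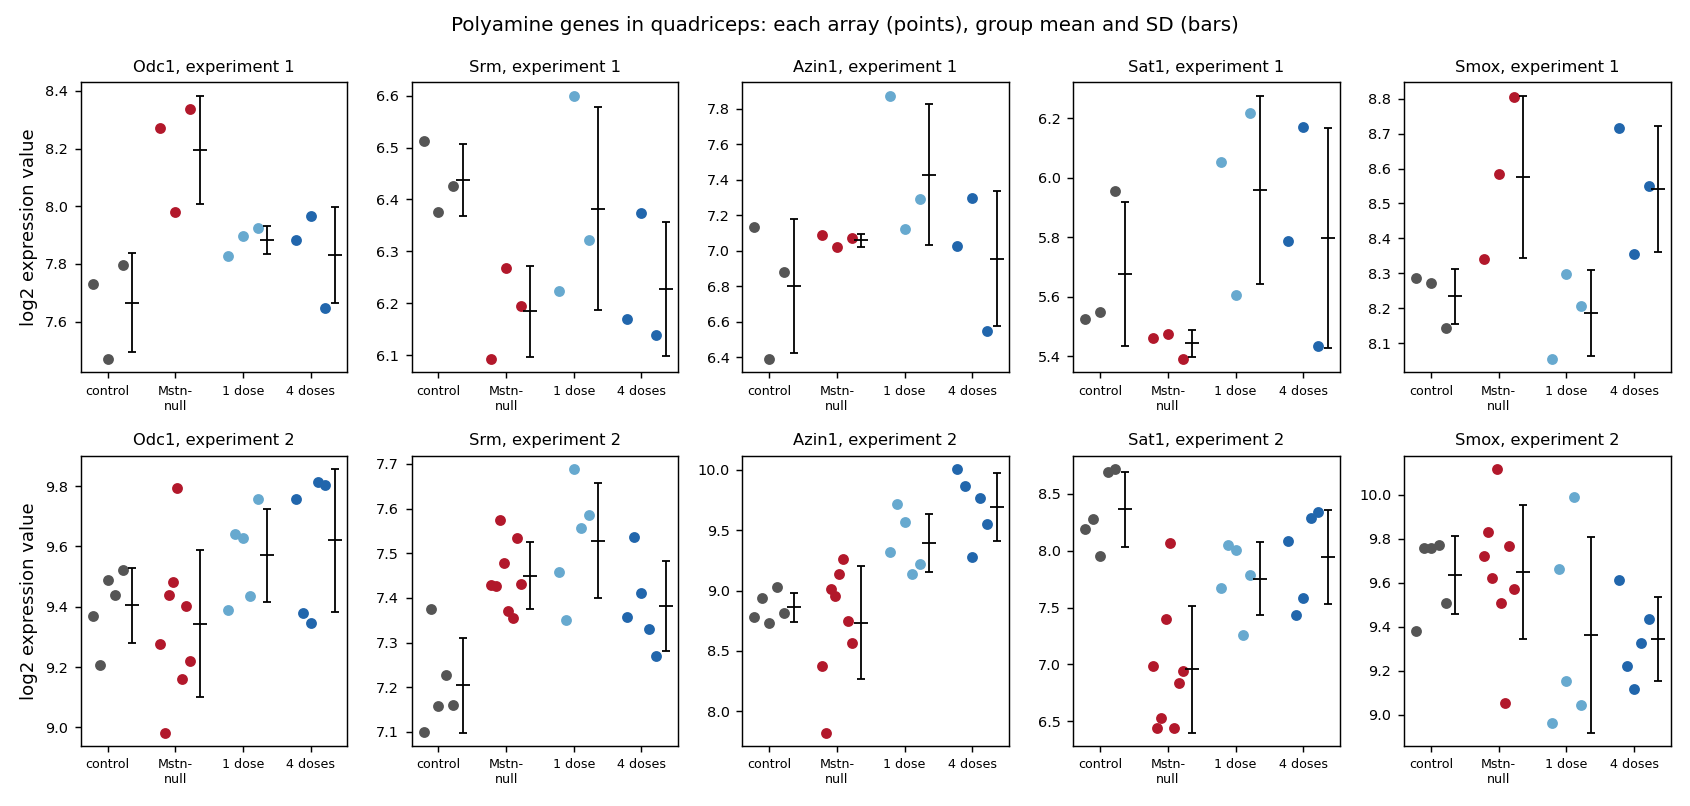
Log2 expression of Odc1, Srm, Azin1, Sat1 and Smox on each of the 35 arrays (y axis, log2 units) by class, with the experiments apart. Each point is 1 array; in experiment 2 Sat1 lies lowest in the Mstn-null class (6.44 to 8.07) and Azin1 highest after 4 doses (9.28 to 10.01).

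In experiment 2, Sat1 read 8.19, 8.28, 7.96, 8.69 and 8.71 in the 5 control mice. In the 8 Mstn-null mice the lowest value was 6.44, the median 6.89 and the highest 8.07. After 1 dose the values were 7.67, 8.05, 8.01, 7.26 and 7.79. After 4 doses they were 8.08, 7.44, 7.58, 8.29 and 8.34. Of the Mstn-null mice 7 of 8 lay below every control, and the groups overlapped through the remaining one. Both dose groups overlapped the controls, with 3 of 5 arrays after 1 dose and 2 of 5 after 4 doses below the lowest control.

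In experiment 1, Sat1 read 5.52, 5.55 and 5.96 in controls and 5.46, 5.48 and 5.39 in Mstn-null mice. All 3 Mstn-null values lay below all 3 controls, as 13.9% of all genes did, but the gap was small. After 1 dose the values were 6.05, 5.61 and 6.22, and after 4 doses 5.79, 6.17 and 5.43. Within experiment 2 the Mstn-null change was -1.41 ± 0.21 (SE, limma adjusted p = 1.34e-05, among 16.7% of genes called lower). In experiment 1 it was -0.23 ± 0.30 (limma adjusted p = 0.766, with 3.48% of genes called in either direction). The difference between the experiments, -1.18 ± 0.36, missed the threshold (limma adjusted p = 0.071, where 1.68% of genes were called), but passed without Mstn-null replicate 5 of experiment 2 (-1.33, adjusted p = 0.0177), with the interquartile range of each array as a covariate (-1.18, adjusted p = 0.0239) and with array weights (-1.14, adjusted p = 0.0174).

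Sat1 did not pass the test after ActRIIB-Fc, at -0.28 ± 0.20 after 1 dose (95% interval -0.69 to 0.14) and -0.22 ± 0.20 after 4 doses (95% interval -0.63 to 0.20). These intervals, over both experiments, leave out the Mstn-null fall of 1.02. Within experiment 1 the changes were 0.28 ± 0.30 after 1 dose and 0.12 ± 0.30 after 4 doses. Within experiment 2 the 1-dose change was -0.61 ± 0.23 (95% interval -1.08 to -0.14, limma adjusted p = 0.177). It passed there with array weights (-0.61, adjusted p = 0.0260). The 4-dose change of experiment 2 was -0.42 ± 0.23 (limma adjusted p = 0.461). Over both experiments, set directly against Mstn-null muscle, Sat1 was higher by 0.80 ± 0.19 after 4 doses (limma adjusted p = 0.00409) and by 0.74 ± 0.19 after 1 dose (limma adjusted p = 0.00645). In these comparisons 20.2% and 16.8% of all genes were called, 11.4% and 10.9% as higher. They share the Mstn-null arrays with the comparison against control.

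Of the settings that kept both experiments, 1 lost the Sat1 call in Mstn-null muscle. With the interquartile range of each array as a covariate, Sat1 in Mstn-null muscle was -0.55 ± 0.23 over both experiments (limma adjusted p = 0.259), and -0.93 ± 0.23 within experiment 2 (limma adjusted p = 0.0135). The same covariate took the dose comparisons against Mstn-null to 0.48 (adjusted p = 0.299) and 0.35 (adjusted p = 0.578). Over all 19938 genes it left 295 called in Mstn-null muscle over both experiments, against 8337 without it. In the same dose comparisons it left 203 and 91 genes called, against 4019 and 3354. The ranges of control and Mstn-null arrays did not overlap. They were 2.87 to 3.03 and 2.74 to 2.84 in experiment 1, and 2.80 to 2.87 and 2.52 to 2.76 in experiment 2. The covariate thus changes with the class, and this fit cannot tell the spread of an array from the Mstn-null difference.

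Markers of fibre type and of other cells also differed in Mstn-null muscle. There 16.4% of all genes were called lower, beside 1.23% after 4 doses. All 10 slow fibre genes fell, and their mean per array in experiment 2 was 9.91 to 10.6 in controls and 6.77 to 9.38 in Mstn-null mice. The same means of experiment 1 were 7.54 to 9.20 and 5.70 to 6.95. After 4 doses 9 of the 10 fell over both experiments, with means of 7.74 to 9.57 in experiment 2 and 6.12 to 7.34 in experiment 1, while Sat1 was not called there (-0.22). Of 8 endothelial markers 3 fell in Mstn-null muscle: Egfl7 by 0.68 (limma adjusted p = 3.12e-05), Pecam1 by 0.59 (adjusted p = 0.000246) and Emcn by 0.68 (adjusted p = 0.00533). Their list mean was 8.08 to 8.17 in controls and 7.43 to 8.23 in Mstn-null mice of experiment 2, and 6.07 to 6.55 and 5.89 to 6.09 in experiment 1. Of 5 measured adipocyte markers 1 fell, Fabp4, by 1.51 (adjusted p = 7.15e-05), and the list mean was 7.44 to 8.64 in controls and 6.62 to 8.29 in Mstn-null mice of experiment 2, and 5.79 to 6.88 and 5.34 to 6.41 in experiment 1. Their part in the Sat1 result was not tested.

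**Figure D2:**
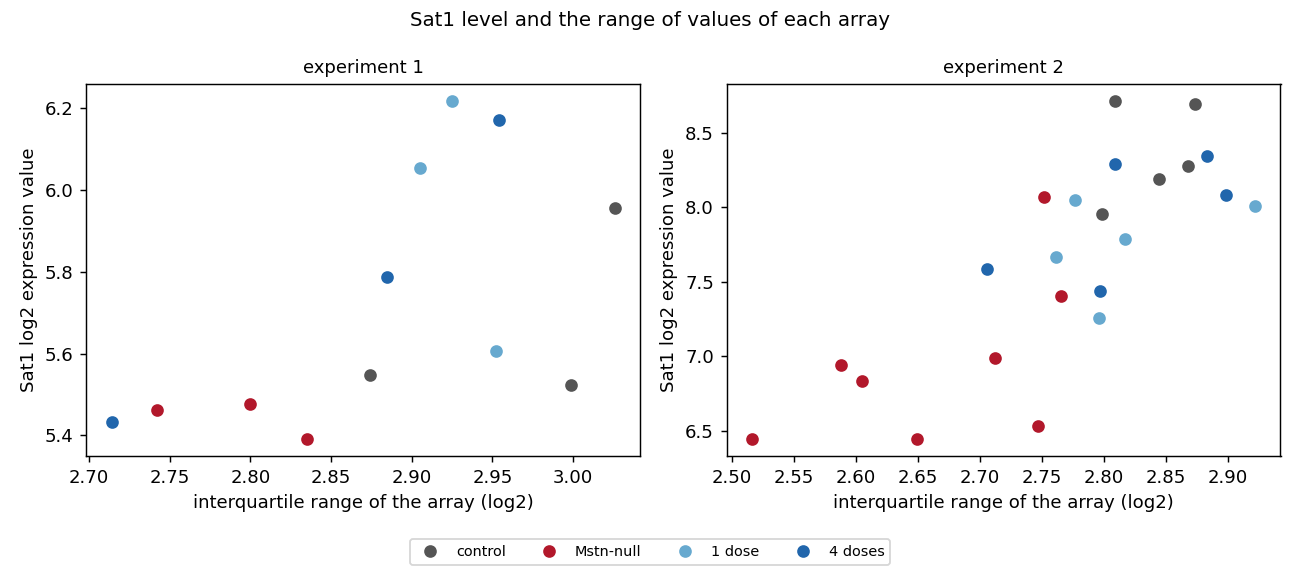
Sat1 log2 expression (y axis, log2 units) against the interquartile range of the array (x axis, log2 units), 1 point per array, by class, for each experiment. The Mstn-null arrays of experiment 2 sit at ranges of 2.52 to 2.76 with Sat1 at 6.44 to 8.07, the controls at 2.80 to 2.87 with Sat1 at 7.96 to 8.71.

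Over the 35 arrays, with values centred within each experiment, the genes whose pattern was most like Sat1 were Mterf3 (Pearson r = 0.92), Etfrf1 (0.91), Parp2 (0.89), Rgs5 (0.89) and Arid4b (0.89). Each of these was lower in Mstn-null muscle as well, by 0.69 to 1.39 log2 units. The arrays share their class differences and their spread, so these correlations describe the pattern and carry no p. The within-group standard deviation of Sat1 was 0.398, higher than that of 97.5% of genes, whereas that of Srm was 0.110, at the 3.89th percentile.

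Azin1, the antizyme inhibitor, stood highest in the treated mice of experiment 2. There it read 8.78, 8.94, 8.73, 9.03 and 8.82 in controls, 9.32, 9.71, 9.56, 9.14 and 9.22 after 1 dose, and 10.01, 9.87, 9.28, 9.76 and 9.55 after 4 doses. All 5 values of either dose group lay above every control; 4.17% of all genes behaved so after 1 dose and 4.15% after 4 doses. The Mstn-null mice ranged from 7.82 through a median of 8.85 to 9.26 and overlapped the controls on both sides.

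Within experiment 2 Azin1 was 0.83 ± 0.20 (SE) higher after 4 doses than in controls (1.78-fold, 95% interval 0.43 to 1.23, limma adjusted p = 0.0108), where 1.98% of genes were called higher. After 1 dose the change was 0.53 ± 0.20 (limma adjusted p = 0.167, 0.933% of genes called higher), which passed with array weights (0.52, adjusted p = 0.0142). In experiment 1 the controls read 7.13, 6.39 and 6.88, the 1-dose mice 7.87, 7.12 and 7.29, and the 4-dose mice 7.02, 7.30 and 6.55. There both dose groups overlapped the controls, at 0.63 ± 0.25 after 1 dose and 0.15 ± 0.25 after 4 doses, neither past the threshold (limma adjusted p = 0.999985 and 0.912, where 0.0502% and 0.471% of genes were called). The difference of the 4-dose change between experiments was 0.68 ± 0.32 (limma adjusted p = 0.654) and did not pass, where 0.00502% of genes were called. With array weights it passed (0.85, adjusted p = 0.00538).

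Over both experiments Azin1 was 0.57 ± 0.18 higher after 1 dose (limma adjusted p = 0.118) and 0.58 ± 0.18 higher after 4 doses (limma adjusted p = 0.0629), short of the threshold at both doses. It passed at 1 dose and at 4 doses with quantile normalization (0.62, adjusted p = 0.0431, and 0.62, adjusted p = 0.0203), with the interquartile range as a covariate (0.63, adjusted p = 0.0396, and 0.69, adjusted p = 0.0115) and with array weights (0.59, adjusted p = 0.00277, and 0.66, adjusted p = 0.000982). None of the 5 members was called after 1 dose, where 1.11% of genes were, after 4 doses, where 3.14% were, or between 4 doses and 1 dose, where 0.321% were. The 4-dose call was reached without control replicate 1 of experiment 1 (0.63, adjusted p = 0.0462), without 4-dose replicate 3 of experiment 1 (0.70, adjusted p = 0.0110), or, of experiment 2, Mstn-null replicate 2 (0.58, adjusted p = 0.0227). Against Mstn-null muscle Azin1 was called, at 0.60 ± 0.16 higher after 4 doses (limma adjusted p = 0.0103) and 0.59 ± 0.16 after 1 dose (limma adjusted p = 0.0115). With the interquartile range as a covariate these became 0.36 (adjusted p = 0.411) and 0.29 (adjusted p = 0.608). The Mstn-null change against control was -0.02 ± 0.16 (limma adjusted p = 0.912).

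Macrophage and proliferation markers were also higher after 4 doses: 7 of 12 macrophage markers and 7 of 9 measured proliferating cell markers were called higher, beside 1.91% of all genes. In experiment 2 the mean of the macrophage markers per array was 6.32 to 6.64 in controls, 6.48 to 7.10 after 1 dose and 7.001 to 7.22 after 4 doses. The mean of the proliferation markers was 5.92 to 5.99, 6.002 to 6.31 and 6.53 to 6.72 in the same order. In Mstn-null mice of experiment 2 the macrophage means were 6.52 to 7.23 and the proliferation means 6.02 to 6.19. The Azin1 change there was -0.13. In experiment 1 the macrophage means of controls (4.48 to 4.99) and 4-dose mice (4.83 to 5.06) overlapped. The proliferation means there were at most 4.43 in controls and at least 4.61 after 4 doses, with an Azin1 change of 0.15. The Mstn-null means of both lists overlapped the controls in experiment 1. The part of these markers in the Azin1 values was not tested. The genes most like Azin1 over the 35 centred arrays were Septin10 (Pearson r = 0.83), Rap2c (0.81), Crls1 (0.81), Tmem117 (0.80) and Tpd52 (0.80). None of these was called at either dose, with changes of 0.04 to 0.24 after 1 dose and 0.12 to 0.33 after 4 doses. In Mstn-null muscle each was lower, by 0.10 to 0.38, and Septin10 alone was called (limma adjusted p = 0.0161).

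**Figure D3:**
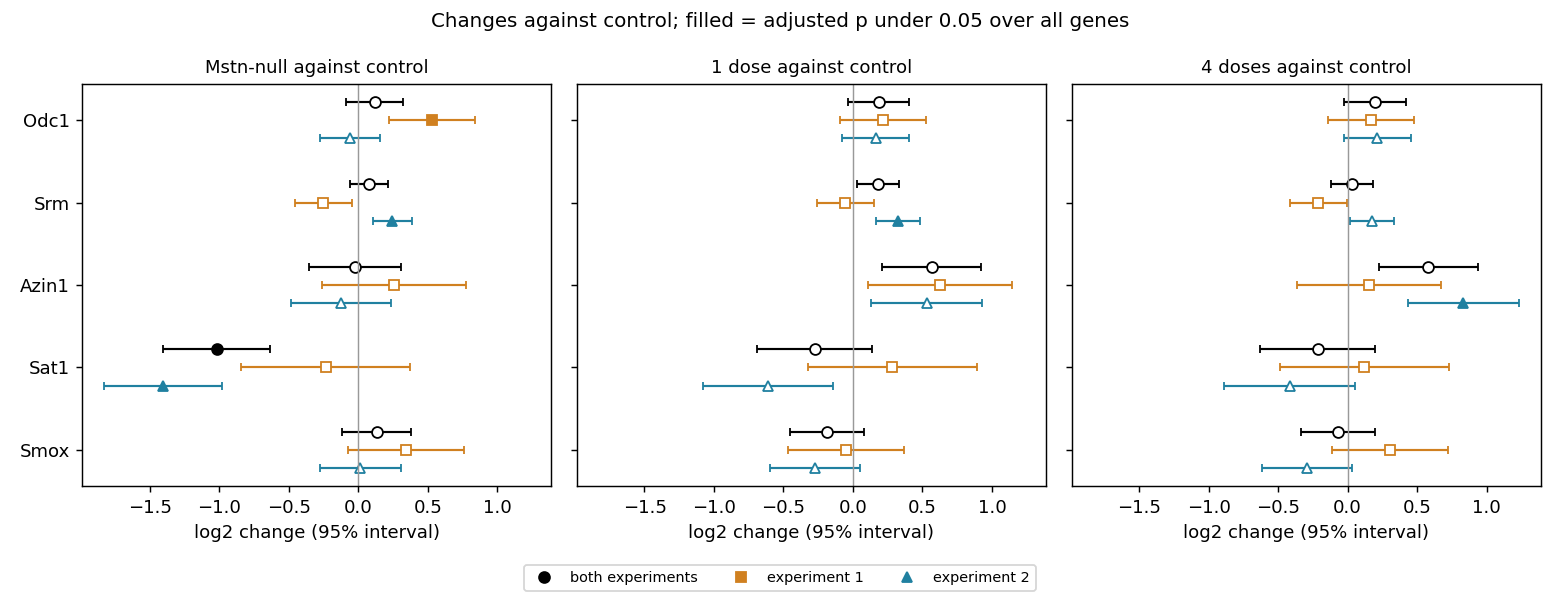
Log2 change against control (x axis, log2 units, with 95% intervals) of each member for Mstn-null, 1 dose and 4 doses, over both experiments and within each; filled symbols passed an adjusted p of 0.05 over all genes. Sat1 in Mstn-null muscle (-1.02 over both, -1.41 in experiment 2) and Azin1 after 4 doses in experiment 2 (0.83) lie farthest from 0 among those that passed.

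Odc1, the rate-limiting enzyme, moved in Mstn-null muscle of experiment 1. It read 7.73, 7.47 and 7.79 in controls and 8.27, 7.98 and 8.34 in Mstn-null mice, and the groups did not overlap (11.6% of genes were higher without overlap). The change was 0.53 ± 0.15 (SE, 1.44-fold, limma adjusted p = 0.0456, 0.777% of genes called higher). In experiment 2 the controls read 9.37, 9.21, 9.49, 9.44 and 9.52, and the Mstn-null mice 8.98 at the lowest, 9.34 at the median and 9.79 at the highest, with a change of -0.06 ± 0.11. The difference between experiments, -0.59 ± 0.19, missed the threshold (limma adjusted p = 0.0729), but passed without Mstn-null replicate 5 of experiment 2 (-0.66, adjusted p = 0.0275). Over both experiments the Mstn-null change was 0.12 ± 0.10 (limma adjusted p = 0.353), which became 0.30 (adjusted p = 0.00454) with quantile normalization within each experiment.

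The second row of Odc1 gave 0.23 ± 0.18 for the same comparison in experiment 1 (limma adjusted p = 0.572), so the 2 rows of the gene do not give the same call. The call was also lost when any of 13 of the 35 arrays was left out: each of the 3 controls, Mstn-null replicates 1 and 3, 1-dose replicates 1 and 3 and 4-dose replicate 1 of experiment 1, and controls 1, 3, 4 and 5 and 1-dose replicate 2 of experiment 2 (adjusted p 0.0512 to 0.233). ActRIIB-Fc gave 0.18 ± 0.11 after 1 dose (95% interval -0.04 to 0.41) and 0.20 ± 0.11 after 4 doses (95% interval -0.03 to 0.42) over both experiments, neither called. After 4 doses in experiment 2 the values were 9.76, 9.38, 9.35, 9.81 and 9.80, and 3 of 5 lay above the highest control.

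Srm, spermidine synthase, went opposite ways in the experiments. In experiment 2 the controls read 7.10, 7.37, 7.16, 7.23 and 7.16, and the Mstn-null mice 7.36 at the lowest, 7.43 at the median and 7.57 at the highest, with 6 of 8 above the highest control. In experiment 1 the controls read 6.51, 6.38 and 6.43 and the Mstn-null mice 6.09, 6.27 and 6.19, all 3 below every control, as 13.9% of genes were. The changes were 0.25 ± 0.07 (SE, limma adjusted p = 0.00595) in experiment 2, where 28.9% of genes were called higher, and -0.25 ± 0.10 (limma adjusted p = 0.167) in experiment 1. Their difference, 0.50 ± 0.12, was called (limma adjusted p = 0.036), where 1.68% of genes were called. That call was lost without any one of the 3 controls or Mstn-null replicates 1 and 3 of experiment 1, or of controls 1, 3, 4 and 5 of experiment 2 (adjusted p 0.0501 to 0.201).

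Srm was also higher after 1 dose in experiment 2, at 7.46, 7.35, 7.69, 7.56 and 7.58, by 0.32 ± 0.08 (limma adjusted p = 0.0243, 0.933% of genes called higher). This call was lost without any of controls 1, 3, 4 and 5 or 1-dose replicates 3, 4 and 5 (adjusted p 0.0517 to 0.0795). It was also lost when 4-dose replicates 1 and 3 and 1-dose replicate 4 of experiment 2 were left out together (0.32, adjusted p = 0.0707). After 4 doses in experiment 2 the change was 0.18 ± 0.08 (limma adjusted p = 0.299), and in experiment 1 it was -0.21 ± 0.10 (limma adjusted p = 0.459). With array weights the changes of experiment 1 passed in Mstn-null muscle (-0.25, adjusted p = 0.0294) and after 4 doses (-0.30, adjusted p = 0.000887). With arrays centred on their medians, the Mstn-null change in experiment 2 became 0.13 (adjusted p = 0.215) and the 1-dose change 0.28 (adjusted p = 0.108). Over both experiments no Srm change passed, with the largest at 0.18 ± 0.07 after 1 dose (limma adjusted p = 0.294).

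Smox, spermine oxidase, was not called in any comparison, over both experiments or within either, except under alternative settings. Its change was 0.13 ± 0.12 in Mstn-null muscle (95% interval -0.11 to 0.38), -0.19 ± 0.13 after 1 dose (95% interval -0.45 to 0.08) and -0.07 ± 0.13 after 4 doses (95% interval -0.33 to 0.20). In experiment 1 the controls read 8.29, 8.27 and 8.14, the Mstn-null mice 8.34, 8.58 and 8.81, and the 4-dose mice 8.72, 8.36 and 8.55, both groups above every control (11.6% and 5.78% of genes were higher without overlap). In experiment 2 the groups overlapped, with controls from 9.38 to 9.77 and Mstn-null mice from 9.05 to 10.12. With quantile normalization within each experiment the Mstn-null change was called, at 0.33 (adjusted p = 0.0417). With array weights the 4-dose change of experiment 1 was called (0.46, adjusted p = 0.00804). So was the difference of the 4-dose change between experiments (-0.76, adjusted p = 0.00891).

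After 1 dose Smox was 0.32 ± 0.12 lower than in Mstn-null muscle, short of the threshold (limma adjusted p = 0.0635). That difference passed without Mstn-null replicate 1 of experiment 1, or without Mstn-null replicate 6 or 1-dose replicates 2 or 4 of experiment 2 (adjusted p 0.0122 to 0.0496). It also passed with quantile normalization (-0.47, adjusted p = 0.00745), with array weights (-0.42, adjusted p = 0.00677), among the genes above the median gene (adjusted p = 0.0453) and when 4-dose replicates 1 and 3 and 1-dose replicate 4 of experiment 2 were left out together (-0.42, adjusted p = 0.0130). Of 11 measured genes in a list of denervation and atrophy regulators, 3 fell in Mstn-null muscle, 3 fell and 1 rose after 1 dose, and 2 fell after 4 doses. Over all genes 16.4% fell in Mstn-null muscle, 0.572% fell and 0.542% rose after 1 dose, and 1.23% fell after 4 doses. Fbxo32, a muscle ubiquitin ligase, fell by 1.02 log2 units after 1 dose (limma adjusted p = 3.02e-05), and Trim63, another, fell by 0.93 (limma adjusted p = 0.000609).

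Among 11 measured genes of 12 listed that also act on polyamines (antizymes, hypusine enzymes, arginases and others), 4 rose and 2 fell in Mstn-null muscle, 0 changed after 1 dose, and 1 rose after 4 doses. Over all genes 25.4% rose and 16.4% fell in Mstn-null muscle, 0.542% and 0.572% after 1 dose, and 1.91% and 1.23% after 4 doses. The median change of these genes was 0.10 in Mstn-null muscle, beside 0.09 over all genes. Oaz2, an antizyme that inhibits Odc1, fell by 0.75 log2 units in Mstn-null muscle (SE 0.13, limma adjusted p = 8.36e-05). In experiment 1 its 3 Mstn-null values of 6.47 to 7.27 lay below the controls of 7.39 to 7.96, as 13.9% of genes did. Sat2, a relative of Sat1, fell by 0.29 (adjusted p = 0.00989). Eif5a2 and Eif5a, the translation factors that carry hypusine, a modification made from spermidine, rose by 0.25 (adjusted p = 0.0106) and 0.24 (adjusted p = 0.0162).

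Eif5a was the gene of this list called after 4 doses, at 0.37 ± 0.09 (SE, limma adjusted p = 0.00824). In experiment 1 its 4-dose values of 9.44 to 9.75 all lay above the controls of 9.04 to 9.13, as 5.78% of genes did. The change there passed (0.52, limma adjusted p = 0.0412). In experiment 2 the 4-dose values of 10.74 to 11.11 overlapped the controls of 10.53 to 10.84, and the change did not pass (0.28, limma adjusted p = 0.115). With the interquartile range as a covariate, 0 of the 11 genes were called in Mstn-null muscle, and 1, Eif5a, was still called after 4 doses. Over all 19938 genes, 295 were called in Mstn-null muscle and 709 after 4 doses in that setting, against 8337 and 626 without the covariate.

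Polyamines also need the methionine cycle, which supplies the aminopropyl donor and takes back its by-product. Of 16 measured genes of 19, 3 rose and 7 fell in Mstn-null muscle, 1 fell after 1 dose and 2 fell after 4 doses. Over all genes 25.4% rose and 16.4% fell in Mstn-null muscle, 0.572% fell after 1 dose and 1.23% fell after 4 doses. Cth, the enzyme that makes cysteine from cystathionine, fell in all 3 comparisons over both experiments: by 0.62 in Mstn-null muscle (limma adjusted p = 6.43e-05), by 0.48 after 1 dose (limma adjusted p = 0.0278) and by 0.62 after 4 doses (limma adjusted p = 0.000992). In experiment 2 the Cth controls lay between 6.74 and 7.34, and the Mstn-null, 1-dose and 4-dose mice reached at most 6.58, 6.45 and 6.45, so no group overlapped them. Of all genes 5.52%, 2.94% and 2.80% were lower without overlap in these comparisons. In experiment 1 no Cth change passed, at -0.24 in Mstn-null muscle (limma adjusted p = 0.462), 0.08 after 1 dose, the opposite direction (adjusted p = 0.999985), and -0.26 after 4 doses (adjusted p = 0.614). Mat2b, the regulatory subunit of methionine adenosyltransferase, fell by 0.59 in Mstn-null muscle (adjusted p = 3.03e-05). Got1, a cytosolic aminotransferase, fell by 0.63 in Mstn-null muscle (adjusted p = 5.54e-05) and by 0.44 after 4 doses (adjusted p = 0.0230). The 1-dose call of Cth was lost without any one of controls 2, 3, 4 and 5 or 1-dose replicates 1, 2, 4 and 5 of experiment 2 (adjusted p up to 0.0860), and that of Got1 after 4 doses without control replicate 1 or 4-dose replicate 3 of experiment 1 or 4-dose replicate 3 of experiment 2 (adjusted p up to 0.0623). Leaving out 4-dose replicates 1 and 3 and 1-dose replicate 4 of experiment 2 together also ended both calls (adjusted p = 0.0572 for Cth and 0.107 for Got1). With the interquartile range as a covariate the Mstn-null changes of Mat2b (-0.32, adjusted p = 0.156) and Got1 (-0.20, adjusted p = 0.363) did not pass, and that of Cth did (-0.57, adjusted p = 0.0391).

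Of 8 measured transporters of polyamines and arginine of 10 listed, 4 rose and 0 fell in Mstn-null muscle, 0 changed after 1 dose, and 1 rose after 4 doses. Over all genes 25.4% rose and 16.4% fell in Mstn-null muscle, 1.11% changed after 1 dose, and 1.91% rose after 4 doses. Slc7a2, a cationic amino acid carrier, rose by 0.31 in Mstn-null muscle (limma adjusted p = 0.00657) and by 0.41 after 4 doses (limma adjusted p = 0.00763). Atp13a3, a polyamine transport ATPase, rose by 0.44 in Mstn-null muscle (adjusted p = 0.0272), but stood at -0.06 (adjusted p = 0.776) with the mean of its rows, and its call was lost without control replicate 2 or Mstn-null replicate 1 of experiment 1 or Mstn-null replicate 6 of experiment 2 (adjusted p up to 0.0653). The Slc7a2 call after 4 doses was lost when 4-dose replicates 1 and 3 and 1-dose replicate 4 of experiment 2 were left out together (0.35, adjusted p = 0.0626). With arrays centred on their medians, 0 of the 8 rose in Mstn-null muscle and 1 did so after 4 doses. Among 11 measured regulators of 12 listed, 3 rose and 2 fell in Mstn-null muscle, beside 25.4% and 16.4% of all genes. At either dose 0 were called, beside 1.11% of all genes after 1 dose and 3.14% after 4 doses. Myc, a known activator of Odc1, stood at 0.46 ± 0.14 after 1 dose (limma adjusted p = 0.109).

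**Figure D4:**
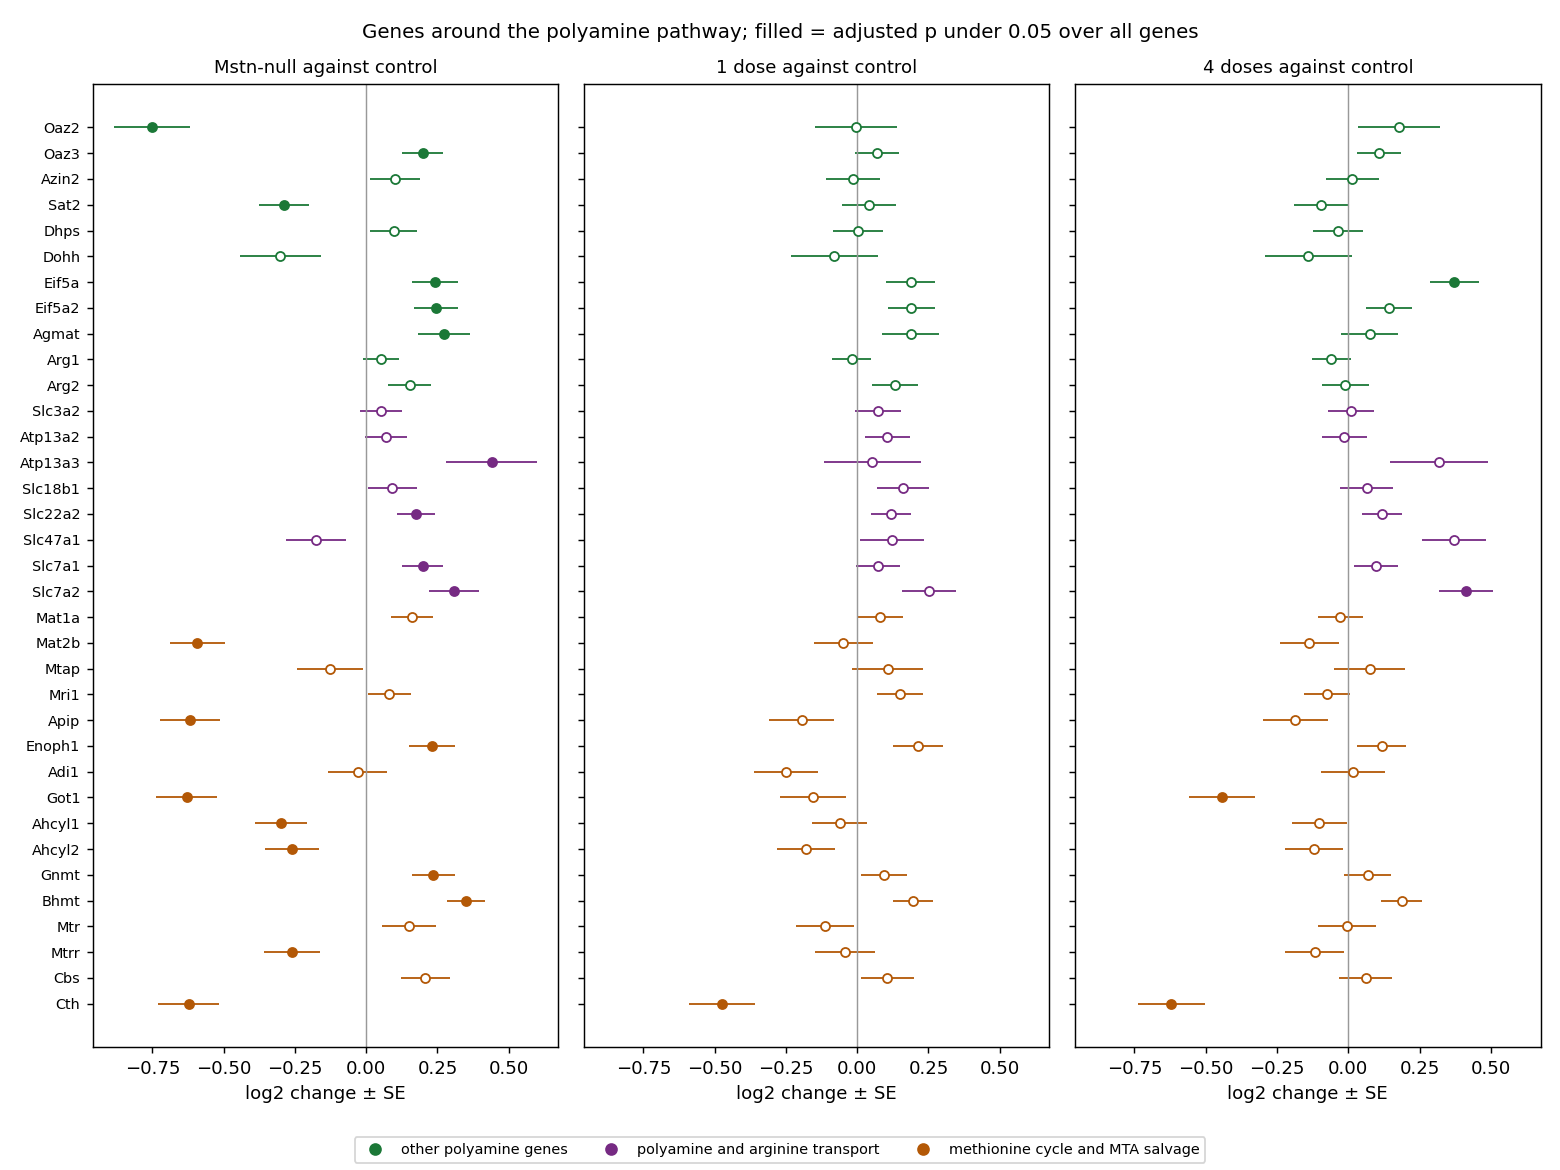
Log2 change against control (x axis, log2 units, ± SE over both experiments) of the measured genes around the pathway, for Mstn-null, 1 dose and 4 doses; filled symbols passed an adjusted p of 0.05 over all genes. Cth is filled in all 3 panels, at -0.62, -0.48 and -0.62, while Oaz2 is filled for Mstn-null alone, at -0.75.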

How the data were processed

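Quadriceps RNA of 35 mice was hybridised to whole-transcript arrays, 1 per mouse. The table the authors deposited holds log2 values. RMA, limma 3.4.4 and R 2.11.1 are named in the submitters' processing notes, with no role stated for each. The sources used here do not say whether the experiments were normalized in 1 run. Precision is limited by how many arrays each group has.

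Of 35556 rows, 21789 carried exactly 1 gene symbol in the platform annotation, 1621 several and 12146 none. Of the first, 21698 matched a RefSeq gene by number (GRCm38.p6) and 0 symbols differed. For 999 genes with several rows the row with the highest mean was kept, leaving 19938 genes with no filter on dim genes. limma 3.58.1 in R 4.3.3 (lmFit, eBayes, two-sided) fitted class and experiment over all arrays. A fit of 8 group means gave the changes within each experiment and their differences. Replicates are separate mice per the labels. Fits were tested on simulated data.

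The members and gene lists were chosen with earlier results of these data known. All members are named; of other lists, up to 4 genes with the smallest p in the comparison described. The closest genes are the 5 highest Pearson correlations for each of the 2 members with the smallest p. Rows without a sole symbol were dropped. Alternatives were quantile normalization, median centring, the interquartile range as a covariate, a filter on dim genes, trend and robust moderation, array weights, the mean of a gene's rows, a replicate block, either experiment alone and leaving out arrays.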

Additional observations from a re-analysis of the deposited data

Results flagged for a closer look

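Srm in Mstn-null muscle was picked out because a test of the difference itself set its responses in experiments 1 and 2 apart. It stood 0.25 log2 units below control in experiment 1 and 0.25 above it in experiment 2, a difference of 0.50 ± 0.12 (SE, limma adjusted p = 0.036, n = 3 and 3 arrays in experiment 1 and 5 and 8 in experiment 2). In that test 1.68% of all genes were called. The Srm call was lost with quantile normalization (0.44, adjusted p = 0.0554) and with median centring (0.46, adjusted p = 0.0803). It was also lost when any 1 of 9 of the 35 arrays was left out. In experiment 1 3 of 3 Mstn-null arrays lay below every control, as 13.9% of all genes did, and in experiment 2 6 of 8 lay above every control. No array stood apart within its group for any member by Dixon's criterion, over 20 groups of 4 or more arrays; chance alone would set apart about 1 group in 20.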

How the results depend on the processing

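Over 3360 single member values recomputed under the alternatives, 3206 kept their direction and their side of the threshold, 39 gained a call, 46 lost one and 69 changed sign. None of the 69 was past the threshold in either setting, and the largest of them was 0.28 as reported. The median change of all genes in Mstn-null muscle was 0.09 as reported and -0.02 with arrays centred on their medians.

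The numbers of members called were 1 in Mstn-null muscle, 0 at each dose, 0 between doses and 2 for each dose against Mstn-null, with 1 and 4 of 15 changes within experiments 1 and 2 and 1 difference between experiments. With quantile normalization they were 3 in Mstn-null, 1 at 1 dose, 1 at 4 doses and 0 differences. Over all 19938 genes 5741, 195 and 559 were called in Mstn-null, at 1 dose and at 4 doses. As reported these were 8337, 222 and 626. The member gained at the doses, here, with the interquartile range and with array weights, was Azin1. With median centring the members called were 0 in experiment 1, 2 in experiment 2 and 0 differences. With the interquartile range as a covariate they were 0 in Mstn-null, 1 at each dose, 0 for each dose against Mstn-null and 3 differences. Over all genes that setting called 295 in Mstn-null, 325 at 1 dose and 709 at 4 doses. Against Mstn-null it called 203 at 4 doses and 91 at 1 dose. With trend and robust moderation, and with the mean of all rows, experiment 1 had 0 members called. With array weights the members called were 1 at each dose, 4 in experiment 1 and 7 differences. Over all genes 1743 were then called at 1 dose and 1543 at 4 doses, against 222 and 626 as reported. In experiment 1 the gains were Srm in Mstn-null and Srm and Smox at 4 doses. In experiment 2 they were Sat1 and Azin1 at 1 dose. The differences gained were Sat1 in Mstn-null, Sat1 and Srm at 1 dose, and Smox, Srm and Azin1 at 4 doses. In experiment 2 alone the members called were 2, 1 and 1. Leaving out 1 array at a time gave 0 to 1 at 4 doses, 0 to 1 in experiment 1 and 0 to 3 differences. The cause was not tested. For the alternatives, counts over all genes within an experiment or for the differences are not given. The member counts there therefore cannot be set against those of all genes.

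The replicate block left 1 member called in each dose against Mstn-null: Azin1 at 4 doses (0.61, adjusted p = 0.0522), Azin1 at 1 dose (0.59, adjusted p = 0.0560) and Sat1 at 1 dose (0.61, adjusted p = 0.0531) were lost, and Smox at 1 dose was gained (-0.39, adjusted p = 0.0417). Cth at 1 dose was also lost (-0.48, adjusted p = 0.0691), as were Sat2 (-0.25, adjusted p = 0.0718) and Atp13a3 (0.25, adjusted p = 0.196) in Mstn-null muscle. Over all genes the block left 1212 called at 4 doses and 1244 at 1 dose against Mstn-null, where 4019 and 3354 were called as reported. The log2 values of arrays of the same group correlated at 0.954 to 0.996. With group means removed, same-numbered arrays correlated at -0.525 to 0.415 in experiment 1 and at -0.60 to 0.376 in experiment 2. Also with group means removed, arrays with different numbers correlated at -0.421 to 0.532 and at -0.426 to 0.48. The labels do not say whether arrays of equal number share anything else, and these ranges cannot decide it.

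Signs changed as follows. With quantile normalization, Azin1 in Mstn-null was 0.14 (0.066 in experiment 2), Odc1 in Mstn-null of experiment 2 was 0.15, and Odc1 against Mstn-null was -0.052 at 4 doses and -0.068 at 1 dose. With median centring, Srm was -0.028 in Mstn-null, -0.0074 at 4 doses and 0.021 at 4 doses against Mstn-null, and Smox in Mstn-null of experiment 2 was -0.10. With the interquartile range, Azin1 in Mstn-null was 0.34 (0.13 in experiment 2), Odc1 against Mstn-null was -0.12 at 4 doses and -0.17 at 1 dose, Sat1 in Mstn-null of experiment 1 was 0.26, Odc1 in Mstn-null of experiment 2 was 0.20, and the Odc1 difference at 4 doses was -0.096. With array weights, Azin1 in Mstn-null was 0.071, Odc1 at 1 dose against Mstn-null was -0.059 and the Azin1 difference at 1 dose was 0.063. With the block, Odc1 at 1 dose against Mstn-null was -0.0070. Without the 3 arrays left out together, 4 doses against 1 dose was -0.0053 for Odc1 and -0.096 for Azin1. In experiment 1 alone, Srm was -0.25, -0.056 and -0.21 in Mstn-null, 1 dose and 4 doses, Azin1 in Mstn-null was 0.26, Sat1 was 0.28 at 1 dose and 0.12 at 4 doses, and Smox at 4 doses was 0.31. In experiment 2 alone Odc1 in Mstn-null was -0.061.

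Leaving out 1 array at a time, Azin1 ranged from -0.080 to 0.075 in Mstn-null, from -0.20 to 0.0049 in Mstn-null of experiment 2, from -0.051 to 0.36 at 4 doses in experiment 1, from -0.069 to 0.13 at 4 doses against 1 dose, and from -0.26 to 0.13 for its difference at 1 dose. Srm ranged from -0.0012 to 0.074 at 4 doses and from -0.17 to 0.023 at 1 dose in experiment 1. Odc1 ranged from -0.028 to 0.060 at 4 doses against 1 dose, from -0.12 to 0.045 for its difference at 1 dose and from -0.045 to 0.15 at 4 doses. Sat1 ranged from -0.025 to 0.13 at 4 doses against 1 dose and from -0.065 to 0.30 at 4 doses in experiment 1. Smox ranged from -0.10 to 0.018 at 1 dose in experiment 1 and from -0.053 to 0.098 in Mstn-null of experiment 2.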
